A study of Mus musculus with 4 samples.

Results

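The genes described here encode the mouse DEAD box and DEAH box RNA helicases, taken as the protein-coding genes on chromosomes 1 to 19 whose symbol is Ddx or Dhx followed by a number and at most 1 letter in GENCODE M21 (build GRCm38). The rule took 51 genes, 35 named Ddx and 16 named Dhx, of 20807 protein-coding genes on these chromosomes. The rule itself reads symbols and positions only. The cells came from mouse bone marrow, were lin- c-Kit+, and are called LIC in the labels, which do not spell the term out. They were grown with the cytokines IL3, IL6 and SCF and crosslinked 3 times with 254 nm UV light at 120 mJ per cm2. RNA was then immunoprecipitated with an antibody to IGF2BP2, YTHDF2 or YTHDC1, in 1 library for each protein, and 1 library was the input that all 3 shared. IGF2BP2 had 7069 peaks, YTHDF2 had 2834 and YTHDC1 had 9963, and sequencing depth is unknown.

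DEAD and DEAH box helicases use ATP to open RNA duplexes or to strip proteins from RNA, and they are named for a run of amino acids in the ATP-binding core. They drive the rearrangements of the spliceosome and of the maturing ribosome, and others work in mRNA export, translation, decay and the sensing of foreign RNA. The 3 immunoprecipitated proteins are readers of m6A, a methyl mark on adenosines of RNA: IGF2BP2 is known for stabilising mRNA, YTHDF2 for promoting mRNA decay and YTHDC1 for roles in the nucleus. A peak is a stretch where immunoprecipitated RNA piled up. Its summit is the highest base, its pileup is the height there, and its fold is the authors' ratio of that height to the local background, with the details of the ratio not given in the sources used here. A peak was given to the gene under its summit. With 1 library for each reader, no difference between readers or gene sets was tested, and every interval below is an exact binomial (Clopper-Pearson) 95% interval that covers counting error only.

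Helicase mRNAs appeared in the lists more often than protein-coding genes at large. IGF2BP2 peaks lay in 27 of the 51 helicase genes (52.9%, interval 38.5 to 67.1%), against 12.5% of all protein-coding genes on the same chromosomes. YTHDF2 peaks lay in 18 (35.3%, interval 22.4 to 49.9%), against 7.03%. YTHDC1 peaks lay in 25 (49.0%, interval 34.8 to 63.4%), against 19.3%. A peak in all 3 lists was found for 14 helicase genes (27.5%, interval 15.9 to 41.7%), against 4.89%, and a peak in at least 1 list for 32 (62.7%), against 23.3%. For each reader the lower bound for the helicase genes was above the percentage of all genes. The helicase genes were chosen with earlier results of these data known, so these values are descriptions. The 14 genes in all 3 lists made up 51.9% of the helicase genes with an IGF2BP2 peak, 77.8% of those with a YTHDF2 peak and 56.0% of those with a YTHDC1 peak. Over all protein-coding genes the same shares were 39.2%, 69.6% and 25.3%. Levels of the mRNAs are not in the files used here, so none of these counts is relative to how much of each RNA the cells held.

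Length was measured beside these counts. A helicase gene had a median coding length of 2223 nt in 17 exons, against 1206 nt in 7 exons for protein-coding genes in general, where these have a complete coding transcript. Median gene length was 22805 bp, against 17829 bp. Among genes with a peak in any list the order was the reverse. Helicase genes had a median of 20645.5 bp in 17 exons, against 34539 bp in 12 exons for all protein-coding genes. The part of this compactness in the exonic shares and exon distances given below was not tested. Within the 51 genes, Spearman's rho between the number of peaks and the number of exons was 0.21 (IGF2BP2), 0.019 (YTHDF2) and 0.11 (YTHDC1), and with coding length it was 0.17, 0.086 and 0.092, over 51 genes that share these libraries. The part of length in the counts over all genes was not tested. When each list was cut to the 2834 peaks with the highest −log10 q, peaks of IGF2BP2 lay in 17 helicase genes, those of YTHDF2 in 18 and those of YTHDC1 in 16, against 5.82%, 7.03% and 7.59% of all protein-coding genes.

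Splicing helicases held most of the peaks: 11 of 12 had at least 1 peak, against the 23.3% of all protein-coding genes, and 8 had one in all 3 lists. Those 12 genes carried 47 of the 82 IGF2BP2 peaks in helicase genes, 18 of the 29 YTHDF2 peaks and 32 of the 62 YTHDC1 peaks. Among the 16 helicases of ribosome assembly, 12 had a peak and 5 were in all 3 lists, with 24, 9 and 21 peaks. Of the 4 export genes 1 had a peak, of the 5 genes of translation and mRNA turnover 3, and of the 4 RNA sensing genes 1. Neither of the mitochondrial genes had a peak, while 1 of 2 germ line genes did. Of the 6 remaining genes 3 had a peak. Outside splicing and ribosome assembly 9 of 23 genes had a peak, a share above the 23.3% of all genes. The single roles among them are small, and a share such as 1 of 4 is near 23.3%. The roles are background knowledge, in part from the yeast or human proteins, and the lists were drawn up with earlier results of these data known, so these counts are descriptions.

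**Figure D1:**
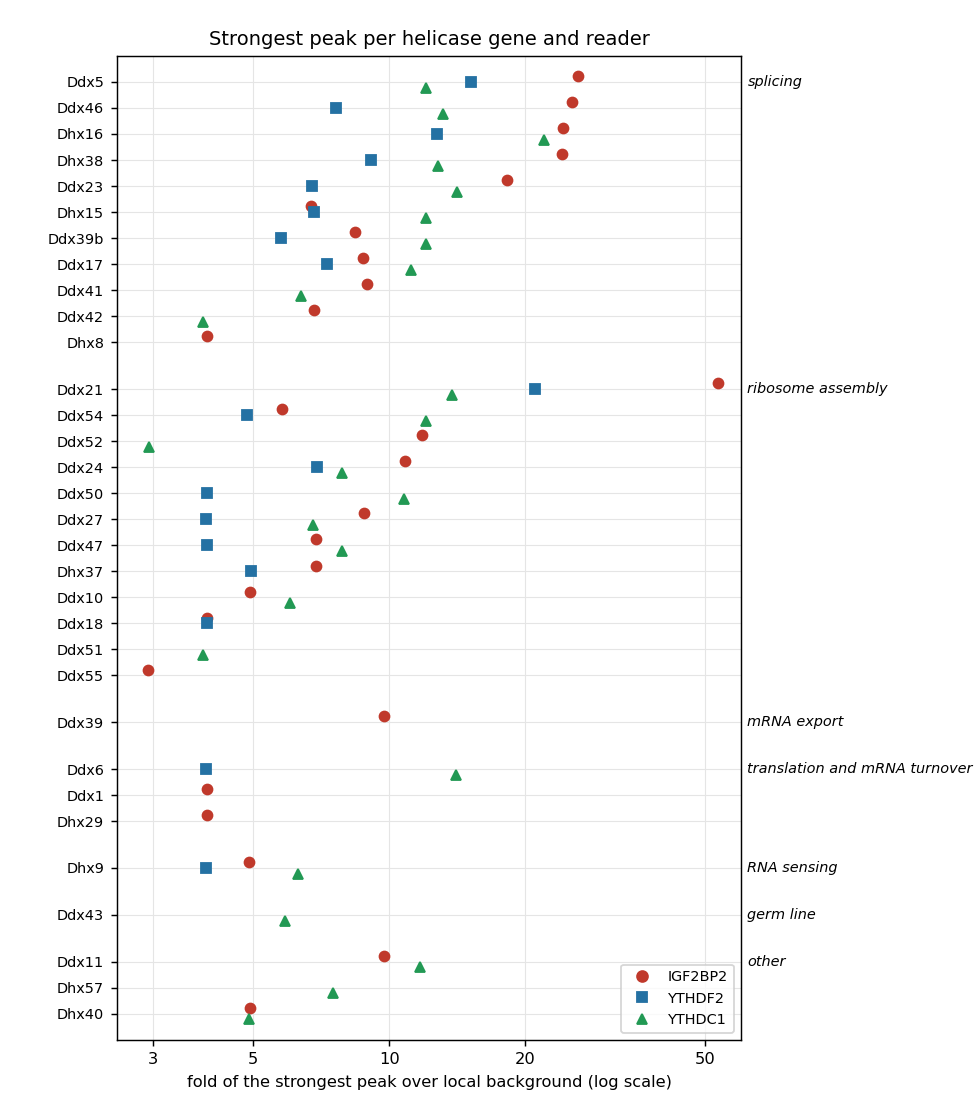
Fold of the strongest peak in each of the 32 helicase genes with a peak, on a log scale, grouped by role and ordered by the highest fold; circles are IGF2BP2, squares YTHDF2 and triangles YTHDC1, with 1 library each and no marker where a list had no peak. Ddx21 stands alone at 53.5 for IGF2BP2, and 5 splicing genes follow between 18.2 and 26.2.

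Ddx21 had the strongest peak of all the helicase genes. It encodes a nucleolar helicase that acts in the transcription and processing of ribosomal RNA. In its exon 2, inside the coding sequence, IGF2BP2 had a fold of 53.5, YTHDF2 one of 20.97 and YTHDC1 one of 13.7, with pileups of 59, 22 and 15. Whether 1 was added to both pileup and background to form the fold is not stated in the sources used here. If so, the backgrounds at these summits were 0.12, 0.097 and 0.16, and these folds mostly follow the pileups. The 3 summits lay within 32 bp of each other, 479 to 511 nt after the start of the coding sequence. By fold the IGF2BP2 peak ranked at percentile 99.8 of its list and the YTHDF2 peak at 98.1, while the YTHDC1 peak was at 89.3. Further sites of Ddx21, in exons 1 and 15, were shared by IGF2BP2 (folds 5.35 and 10.7) and YTHDC1 (9.45 and 6.87) and had no YTHDF2 peak.

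Among the spliceosomal helicases, Dhx16 had strong peaks with every reader. Dhx16 is the homolog of yeast Prp2, which activates the spliceosome for the first step of splicing. At exon 2 the IGF2BP2 fold was 22.5, the YTHDF2 fold 12.8 and the YTHDC1 fold 19.6, and at exon 6 they were 24.2, 10.8 and 21.9. The exon 6 peak had the highest YTHDC1 fold of any helicase gene. Its summits lay within 13 bp of each other.

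Ddx46, the homolog of yeast Prp5 that acts when the U2 particle joins the intron, had 9 IGF2BP2, 2 YTHDF2 and 4 YTHDC1 peaks. Its strongest site was exon 5, with folds of 25.4, 7.62 and 13.2 and pileups of 46, 14 and 36. Exon 3 also had all 3 readers, at 19.6, 6.88 and 3.88. Exon 6 had IGF2BP2 at 18.1 and YTHDC1 at 12.9. An IGF2BP2 summit with a fold of 20.1 was counted as intronic but lay 4 bp from an exon, and a YTHDC1 summit of fold 5.65 lay 6 bp from the same exon.

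Dhx38, the homolog of yeast Prp16, which remodels the spliceosome between its catalytic steps, had the most IGF2BP2 peaks of the 51 genes, 10 in all. They ran from exon 1 to exon 14 of 27, with 1 of them in intron 3. In exon 3 all 3 lists had a peak, IGF2BP2 at a fold of 24.1, YTHDF2 at 9.12 and YTHDC1 at 12.8, with summits within 9 bp. From exon 9 to exon 14 IGF2BP2 had 6 peaks with folds between 3.90 and 12.7. YTHDF2 shared 1 of them, in exon 14 at 7.29, and YTHDC1 shared none; its other Dhx38 summits were in intron 19 and exons 25 and 26, with folds between 3.87 and 4.91.

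Ddx23, the homolog of yeast Prp28, which hands the 5′ splice site over to the U6 particle, had 6 IGF2BP2, 2 YTHDF2 and 4 YTHDC1 peaks. In exon 2 all 3 readers had one, with folds of 18.2, 6.76 and 4.71. At exon 6 IGF2BP2 reached 14.2 and YTHDF2 6.06. At exon 7 IGF2BP2 reached 15.4 and YTHDC1 14.1, with pileups of 37 and 41. Dhx15, the homolog of yeast Prp43 that takes spent spliceosomes apart, was strongest with YTHDC1, at 12.1 in exon 2, where neither other list had a peak.

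The windows under the strongest coding summits of 6 of these genes are shown because they hold long stretches of A and G. Each holds the summit and up to 50 nt on either side, kept within the exon, from the GENCODE M21 transcripts (GRCm38), written 5′ to 3′ on the strand of the gene. Capitals mark runs of at least 6 purines (A or G). The Dhx15 window is under a YTHDC1 summit and the others are under IGF2BP2 summits.
Ddx21 exon 2 (chr10:62598418-62598518, minus strand): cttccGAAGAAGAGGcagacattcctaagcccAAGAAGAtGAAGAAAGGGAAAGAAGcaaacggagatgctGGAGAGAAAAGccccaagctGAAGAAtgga
Ddx46 exon 5 (chr13:55647678-55647778, plus strand): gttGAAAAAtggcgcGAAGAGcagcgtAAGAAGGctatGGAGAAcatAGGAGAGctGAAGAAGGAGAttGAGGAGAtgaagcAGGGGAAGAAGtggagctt
Dhx38 exon 3 (chr8:109561977-109562077, minus strand): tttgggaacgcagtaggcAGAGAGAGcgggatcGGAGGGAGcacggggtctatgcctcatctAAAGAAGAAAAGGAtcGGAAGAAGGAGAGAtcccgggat
Dhx16 exon 6 (chr17:35882873-35882973, plus strand): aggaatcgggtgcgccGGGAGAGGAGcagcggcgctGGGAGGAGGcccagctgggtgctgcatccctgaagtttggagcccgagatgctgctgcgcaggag
Ddx23 exon 2 (chr15:98658303-98658403, minus strand): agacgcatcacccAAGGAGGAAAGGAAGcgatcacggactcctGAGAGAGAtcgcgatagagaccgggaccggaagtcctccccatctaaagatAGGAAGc
Dhx15 exon 2 (chr5:52184811-52184903, minus strand): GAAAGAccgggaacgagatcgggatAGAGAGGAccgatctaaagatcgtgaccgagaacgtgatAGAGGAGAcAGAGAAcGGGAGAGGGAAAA
Purines made up 72.3% of the Ddx21 window, against 59.4% of its coding sequence. For Ddx46 the values were 77.2% and 60.9%, for Dhx38 70.3% and 55.4%, and for Dhx16 62.4% and 54.5%. For Ddx23 they were 63.4% and 58.8%, and for Dhx15 77.4% and 53.4%. These 6 windows were picked for this trait, and some other strong coding windows held fewer purines. The strongest of Ddx5 (IGF2BP2 fold 26.2) had 59.4%, against 55.9% of its coding sequence. That of Ddx54 (YTHDC1 fold 12.1, 58 nt) had 36.2%, against 54.9%. All coding windows are counted below.

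Purine content was above that of the same coding sequence in most coding windows (the summit with 50 nt of mRNA on either side). In helicase genes this held for 53 of 58 IGF2BP2 windows (91.4%), 18 of 21 YTHDF2 windows (85.7%) and 30 of 34 YTHDC1 windows (88.2%). In other protein-coding genes it held for 79.4%, 77.1% and 78.3%. The median excess of the window was 7.65, 7.48 and 5.85 percentage points in helicase genes, against 5.66, 5.00 and 6.22 points in the others. For YTHDF2 the interval of the helicase share (63.7 to 97.0%) took in the share in other genes. So did that for YTHDC1 (72.5 to 96.7%), but not that for IGF2BP2 (81.0 to 97.1%). Windows of 1 gene are not independent of each other. Counted by gene, the mean IGF2BP2 window was above the coding sequence in 22 of 23 helicase genes (95.7%, interval 78.1 to 99.9%). In other genes the share was 85.5%, which that interval took in. The letters GGAC, the core of the commonest m6A motif, searched on the transcript strand, were present in 55.2%, 38.1% and 47.1% of helicase windows, against 43.5%, 42.4% and 43.1% of windows in other genes. All 3 helicase intervals took in the value of the other genes (41.5 to 68.3%, 18.1 to 61.6% and 29.8 to 64.9%).

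**Figure D2:**
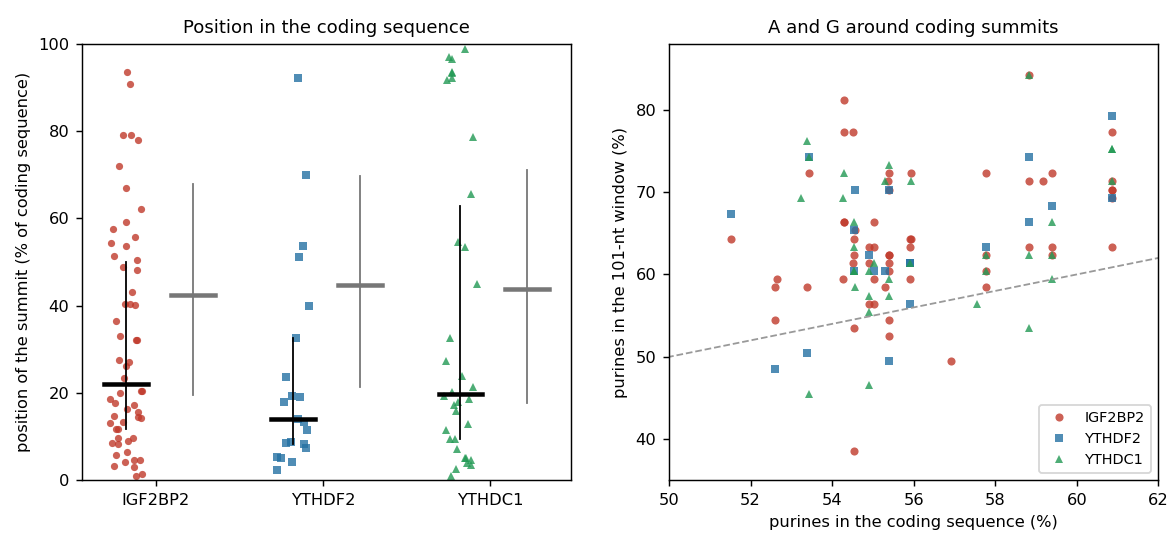
Left, position of each coding summit in the helicase genes as a percentage of the coding sequence (points, 1 per summit; black, median and quartiles), beside the median and quartiles in other protein-coding genes (grey, no points). Right, purine percentage of each window of 50 nt on either side of a summit against that of its own coding sequence, with the dashed line at equality; most points lie above the line, and medians on the left were 21.98, 14.1 and 19.8% in helicase genes against 42.5, 44.7 and 43.9% in the others.

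Coding summits of the helicase genes lay early in the coding sequence. The median position was 21.98% of the way from start to stop for IGF2BP2 (58 summits), 14.1% for YTHDF2 (21 summits) and 19.8% for YTHDC1 (34 summits), against 42.5%, 44.7% and 43.9% in other protein-coding genes. With 1 median per gene, so that genes with many peaks count once, the values were 23.4%, 14.1% and 19.1%, against 42.4%, 44.0% and 42.6%. The stretch from the start codon to 1/3 of the coding sequence held 36 of 58 IGF2BP2 summits (62.1%, interval 48.4 to 74.5%), 16 of 21 YTHDF2 summits (76.2%, interval 52.8 to 91.8%) and 22 of 34 YTHDC1 summits (64.7%, interval 46.5 to 80.3%). In other genes it held 39.8%, 37.4% and 40.4%. Summits of 1 gene are not independent of each other, and many sites were shared between lists, so the intervals are too narrow to that extent. Without the gene with the most coding summits the median was 20.2% for IGF2BP2 (without Dhx38) and 13.8% for YTHDF2 (without Ddx5). For YTHDC1, where Ddx54 and Dhx16 tied at 4 summits, it was 18.4% without Ddx54 and 19.1% without Dhx16.

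The summits were also placed against the box that names the family. The box lies inside the ATP-binding core, so a summit before the box can still lie in the core. Where the core begins was not measured. In 33 of the 51 genes the coding sequence held exactly 1 in-frame run of codons for the box that the gene is named for (DEAD for Ddx, DEAH for Dhx). Summits upstream of these codons numbered 31 of 44 for IGF2BP2 (70.5%, interval 54.8 to 83.2%), 15 of 18 for YTHDF2 (83.3%, interval 58.6 to 96.4%) and 20 of 28 for YTHDC1 (71.4%, interval 51.3 to 86.8%). These summits came from 16, 12 and 14 genes. The stretch before the box made up 46.8%, 46.2% and 47.4% of the coding sequence as a mean over these summits, and 45.0%, 44.2% and 47.7% with each gene counted once. Within 100 nt of the codons lay 2 IGF2BP2, 2 YTHDF2 and 1 YTHDC1 summits.

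**Figure D3:**
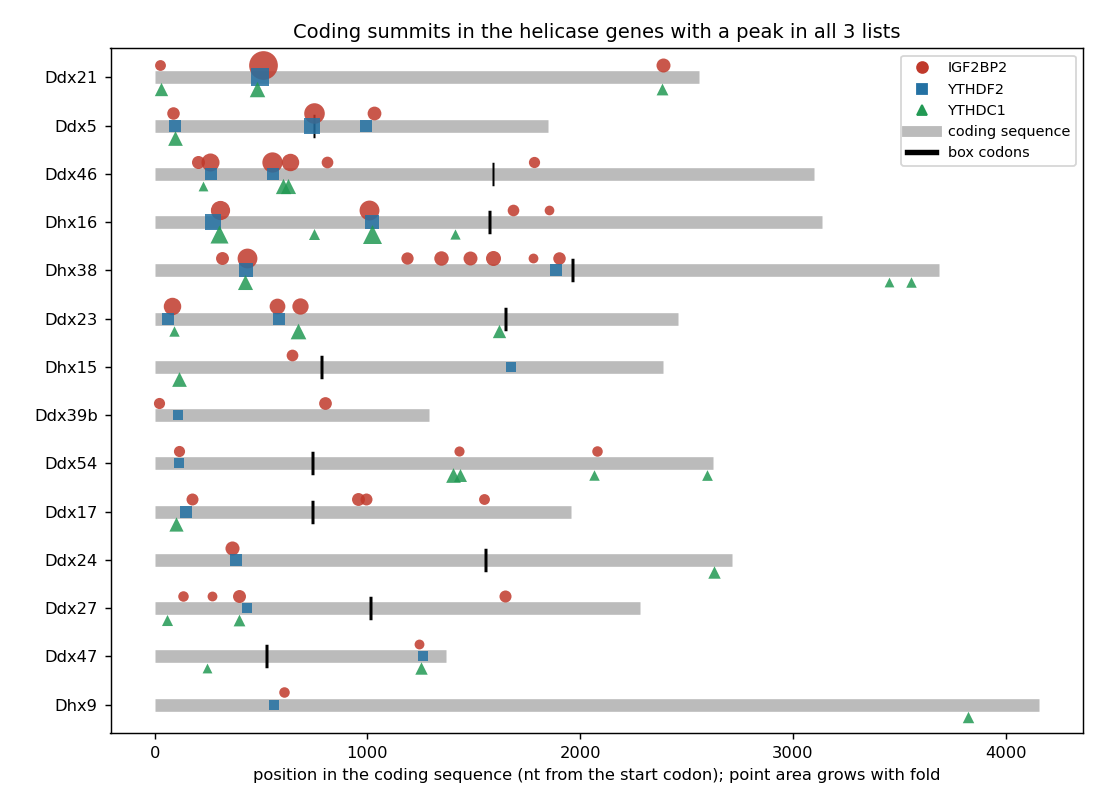
Coding summits in the 14 helicase genes with a peak in all 3 lists, in nt from the start codon; grey bars are coding sequences to scale, black ticks the box codons where exactly 1 run was found, and point area grows with fold (circles IGF2BP2, squares YTHDF2, triangles YTHDC1). In Ddx46, Dhx16, Dhx38 and Ddx23 the large points lie left of the tick, and in Ddx5 the largest points lie on it.

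Ddx5 had its strongest peaks on the box itself. Ddx5, also called p68, acts in splicing and as a partner of transcription factors. In exon 7 its fold was 26.2 for IGF2BP2 and 15.2 for YTHDF2, with no overlapping YTHDC1 peak. The IGF2BP2 summit lay 5 nt after the first base of the box codons and the YTHDF2 summit 2 nt before it. In Ddx23 a YTHDC1 summit of fold 9.45 in exon 13 lay 25 nt before the first base, with no overlapping peak of the other readers. Both windows are given because the box codons, in capitals, stand inside them. They reach 50 nt to either side of the IGF2BP2 summit of Ddx5 and the YTHDC1 summit of Ddx23.
Ddx5 exon 7 (chr11:106785149-106785249, minus strand): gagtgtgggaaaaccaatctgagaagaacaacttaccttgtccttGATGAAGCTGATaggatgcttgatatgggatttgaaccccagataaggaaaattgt
Ddx23 exon 13 (chr15:98648620-98648720, minus strand): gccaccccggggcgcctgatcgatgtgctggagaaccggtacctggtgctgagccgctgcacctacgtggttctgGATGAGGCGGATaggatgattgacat

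Ddx5 and Ddx17 are close paralogs, and both had peaks in exons 2 and 9. Exon 2 had a peak in all 3 lists in each gene. There the folds with IGF2BP2, YTHDF2 and YTHDC1, in this order, were 8.04, 6.70 and 12.04 in Ddx5 and 7.13, 7.29 and 11.2 in Ddx17. Exon 9 had an IGF2BP2 peak in each gene, at 10.3 in Ddx5 and 7.13 in Ddx17, and a YTHDF2 peak in Ddx5 alone, at 6.64. YTHDC1 also had a peak in each gene that was counted as 3′ UTR, at 7.84 in Ddx5 and 5.15 in Ddx17. That label came from another transcript, and both summits lay outside the exons of the main transcript. The other sites differed. The strong exon 7 peak of Ddx5 had no counterpart in exon 7 of Ddx17, and YTHDC1 summits in introns 1 and 12 of Ddx5, at 4.39 and 4.75, had none either. Ddx17 in turn had IGF2BP2 peaks in exons 8 and 13, at 8.75 and 5.35, and YTHDC1 peaks in exon 1 and intron 7, at 4.29 and 5.78. The paralog windows are printed with the bases that a local alignment found identical in capitals, so that the extent of the likeness can be read.
Ddx5 exon 2 (chr11:106786975-106787074, minus strand): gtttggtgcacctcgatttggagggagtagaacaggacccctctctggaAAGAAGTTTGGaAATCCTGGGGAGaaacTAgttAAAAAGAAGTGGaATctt
Ddx17 exon 2 (chr15:79543757-79543856, minus strand): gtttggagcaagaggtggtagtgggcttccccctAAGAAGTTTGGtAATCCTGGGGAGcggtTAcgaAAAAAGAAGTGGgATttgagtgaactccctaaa
Ddx5 exon 9 (chr11:106784429-106784524, minus strand): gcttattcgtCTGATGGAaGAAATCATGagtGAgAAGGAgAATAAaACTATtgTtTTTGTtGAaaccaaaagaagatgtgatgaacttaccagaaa
Ddx17 exon 9 (chr15:79537482-79537545, minus strand): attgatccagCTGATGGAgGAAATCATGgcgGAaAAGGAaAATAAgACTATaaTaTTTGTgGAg
In exon 2 the alignment held 39 identical bases of 48 (81.3%), and in exon 9 it held 42 of 53 (79.2%). Of the 9 Ddx17 summits, 7 lay in exons of the main transcript, and none of their 51-nt windows occurred in a transcript of another gene; the other two were not read. The 51-nt windows at the 3 Ddx5 exon 2 summits all occurred in transcripts of Gm12183, so those reads could be shared with it. Lesser likeness was found between windows of Dhx15 exon 2 and Dhx8 exon 6 (57 of 80 aligned bases), Dhx15 exon 3 and Dhx16 exon 8 (50 of 75) and Dhx16 exon 8 and Dhx38 exon 13 (51 of 77).

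The other splicing genes had weaker or less shared peaks. Ddx39b, which acts in spliceosome assembly and in mRNA export, had 4 IGF2BP2, 3 YTHDF2 and 4 YTHDC1 peaks. All 4 of its YTHDC1 summits were intronic, and its site in all 3 lists was in intron 5, where IGF2BP2 had a fold of 5.13, YTHDF2 5.77 and YTHDC1 12.1. Ddx41, a spliceosomal helicase whose human gene is altered in inherited myeloid neoplasms, had an IGF2BP2 peak of 8.93 in exon 3 and a YTHDC1 peak of 6.39 in exon 2. An antisense gene, Gm46416, lies under both summits, and the lists give no strand, so the pair cannot be told apart. Ddx42 had IGF2BP2 and YTHDC1 peaks in its 3′ UTR, at 6.83 and 3.87. Dhx8, the homolog of yeast Prp22 that releases spliced mRNA, had a single IGF2BP2 peak of 3.94. Dhx35 had none.

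Ribosome assembly genes other than Ddx21 had no peak with a fold above 12.1. Ddx52 had IGF2BP2 at 11.8 and YTHDC1 at 2.94 in exon 2. Ddx24 had IGF2BP2 at 10.8 and YTHDF2 at 6.92 in exon 2, while its YTHDC1 peak of 7.85 was in the last exon. Ddx54 had the most YTHDC1 peaks of the 51 genes, 5, with the strongest at 12.1 in exon 12; its IGF2BP2 and YTHDC1 summits in exon 20 also lie in the antisense gene Gm43579. Ddx27 had 6 IGF2BP2 peaks, up to 8.80 in exon 4, where all 3 lists overlapped. In Ddx47 the shared site was in the last exon, at 3.94, 3.96 and 7.85. Dhx37 and Ddx18 had IGF2BP2 and YTHDF2 peaks only, and Ddx10 had IGF2BP2 and YTHDC1 peaks only. Ddx51 had YTHDC1 alone, at 3.87, and Ddx55 had IGF2BP2 alone, at 2.93, with a pileup of 2. The 51-nt windows at both IGF2BP2 summits of Ddx18, in exons 1 and 2, also occur in Gm16433.

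Some YTHDC1 peaks of helicase genes had a high pileup but not a fold to match. In Ddx6, which represses translation and promotes decapping of mRNA, the pileup was 80, the highest of any peak in the 51 genes, and the fold was 14.0. That summit lay in intron 1, 244 bp from the start of the gene, with no IGF2BP2 or YTHDF2 peak there. If the fold was formed with 1 added to both the pileup and the background, which the files do not state, the local background at this summit was 4.77. In Dhx9, which unwinds RNA and RNA to DNA hybrids, a peak in the last exon had a pileup of 59 but a fold of 6.28, and on the same assumption its background was 8.55. The first exon of Dhx15 had pileups of 45 for YTHDC1, 17 for YTHDF2 and 11 for IGF2BP2 at summits within 9 bp, with folds of 11.6, 6.80 and 4.07. Ddx50, the nucleolar paralog of Ddx21, had a YTHDC1 peak of fold 10.8 and pileup 31, 230 bp from the start. That summit lay in an exon of a noncoding transcript and in intron 1 of the longest complete coding transcript.

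The 23 genes outside splicing and ribosome assembly held 11 IGF2BP2, 2 YTHDF2 and 9 YTHDC1 peaks. Ddx39, the export helicase most like Ddx39b, had IGF2BP2 peaks alone, up to a fold of 9.75 in exon 5, the highest among helicase genes that only the IGF2BP2 list holds. Ddx1, part of the tRNA ligase complex, and Dhx29, which helps ribosomes scan structured leaders, each had 1 intronic IGF2BP2 peak of 3.94 with a pileup of 3. Among genes with YTHDC1 peaks alone, Dhx57 had 7.52 in an intron and Ddx43 had 5.89 in exon 1, where the antisense gene 4930542C12Rik overlaps. Ddx11, a DNA helicase of sister chromatid cohesion that the symbol rule takes in, had 5 IGF2BP2 peaks, up to 9.76 in exon 3, and 2 YTHDC1 peaks, up to 11.7 in exon 5. Dhx40 had 1 IGF2BP2 and 3 YTHDC1 peaks, all intronic and none above 4.93.

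The 19 genes with no peak were spread over the roles. For ribosome assembly they were Ddx31, Ddx49, Ddx56 and Dhx33. For export they were Ddx19a and Ddx19b, which act at the nuclear pore, and Ddx25, known from the testis. The sensors of viral RNA Ddx58 (RIG-I), Dhx58 and Ddx60 had none, nor had the mitochondrial Ddx28 and Dhx30 or the germ line gene Ddx4 (Vasa). Dhx34, which acts in nonsense-mediated decay, Dhx36, which unwinds G-quadruplexes, Dhx35, Ddx20, Ddx59 and Dhx32 complete the list. Their median coding length was 2097 nt, against 2364 nt for the 32 genes with a peak.

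Peaks in helicase genes were mostly exonic. Of 82 IGF2BP2 peaks 81.7% had the summit in an exon (interval 71.6 to 89.4%), against 71.4% in other protein-coding genes. For YTHDF2 the share was 82.8% of 29 peaks (interval 64.2 to 94.2%), against 76.1%. For YTHDC1 it was 72.6% of 62 peaks (interval 59.8 to 83.1%), against 56.2%. The coding sequence alone held 67.1%, 65.5% and 53.2% of the helicase peaks, against 53.7%, 54.0% and 31.4%. The YTHDF2 intervals took in the values of other genes, and those of IGF2BP2 and YTHDC1 lay above them. The margin of the exonic IGF2BP2 share was narrow: with only summits under 1 gene the interval ran from 70.6 to 89.0%, which takes in 71.4%. With exons of the longest complete coding transcript only, it ran from 67.5 to 86.4%, and the YTHDC1 interval from 51.3 to 76.3%. The share of other genes was not measured at either setting. Peaks of 1 gene are not independent of each other, so the intervals are too narrow to that extent. The 3′ UTR held 7.32%, 10.3% and 12.9% of helicase peaks, against 11.4%, 14.3% and 12.3%, each inside its interval.

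**Figure D4:**
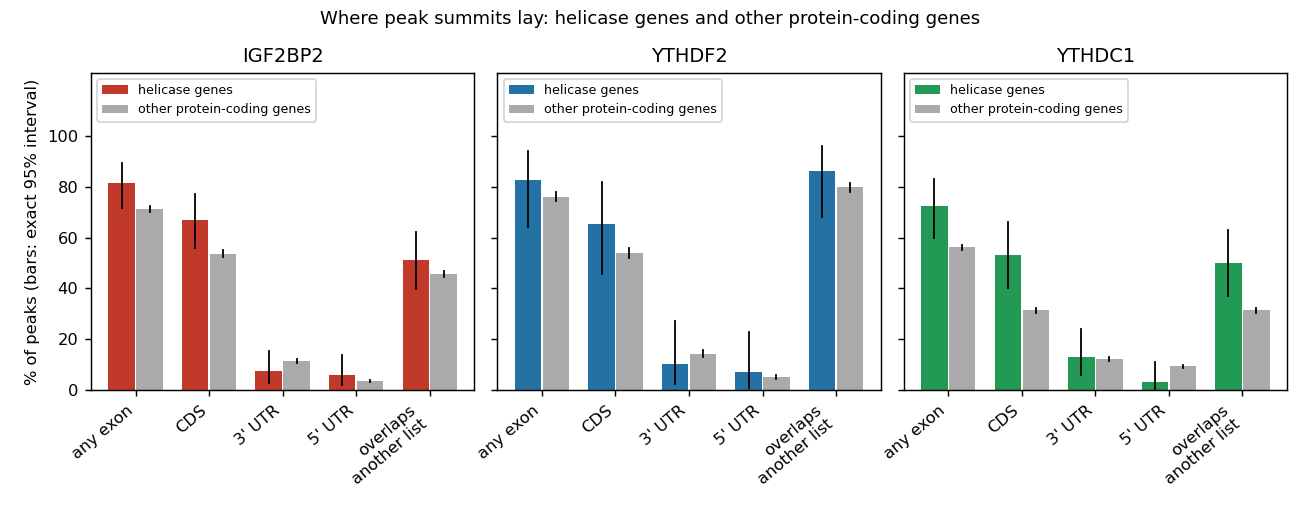
Percentage of peaks with the summit in any exon, in the coding sequence (CDS), in the 3′ UTR or 5′ UTR, and overlapping a peak of another list, for helicase genes (coloured) and other protein-coding genes (grey), 1 panel per reader; lines are exact 95% intervals. The CDS share for YTHDC1 was 53.2% in helicase genes and 31.4% in the others.

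Intronic summits often lay beside an exon. In helicase genes 12 of 15 intronic IGF2BP2 summits were within 100 bp of an exon (interval 51.9 to 95.7%), as were 3 of 5 YTHDF2 summits (interval 14.7 to 94.7%) and 8 of 17 YTHDC1 summits (47.1%, interval 23.0 to 72.2%). In other genes the shares were 53.9%, 49.9% and 19.5%, so the first 2 intervals took in the value of other genes and the YTHDC1 interval did not. The median distance to the exon was 13 bp (IGF2BP2), 30 bp (YTHDF2) and 149 bp (YTHDC1) in helicase genes, against 43, 109 and 1343 bp.

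Peak strength in helicase genes was close to that of their lists. Median fold was 6.78 with IGF2BP2, 6.06 with YTHDF2 and 6.15 with YTHDC1, against 5.91, 5.47 and 6.03 in other protein-coding genes. The top 10% of each list by fold held 11 of 82 helicase peaks (13.4%), 3 of 29 (10.3%) and 2 of 62 (3.23%). In other protein-coding genes the shares were 9.48%, 8.91% and 10.04%. A pileup of 3 or less lay behind 18 (21.95%), 8 (27.6%) and 10 (16.1%) of the helicase peaks, which are the least certain. In other genes it lay behind 28.3%, 34.3% and 22.7%. The interval of each of these helicase shares took in the value of other genes.

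The 173 peaks formed 117 sites when overlapping peaks (by at least 1 bp) were joined. Of these, 40 were in the IGF2BP2 list alone, 31 in the YTHDC1 list alone and 4 in the YTHDF2 list alone. IGF2BP2 and YTHDC1 shared 17, IGF2BP2 and YTHDF2 shared 12, and all 3 lists shared 13, in 11 genes. No site was shared by YTHDF2 and YTHDC1 without IGF2BP2, but only 29 YTHDF2 peaks lay behind these counts. Sites were not formed in other genes, so how usual this pattern is was not measured. At the 13 sites in all 3 lists the median IGF2BP2 fold was 18.2, the median YTHDF2 fold 6.88 and the median YTHDC1 fold 12.04, and the summits of a site spanned a median of 29 bp. At the sites of 1 list alone it was 6.24, 3.96 and 5.76. A peak of another list overlapped 42 of the 82 peaks of IGF2BP2 in helicase genes (51.2%), 25 of the 29 of YTHDF2 (86.2%) and 31 of the 62 of YTHDC1. In other genes the shares were 45.7%, 79.9% and 31.4%. The lists share 1 input and differ in length, so these overlaps are descriptions.

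Of 22 other RNA helicase genes, which the symbol rule leaves out, 14 had a peak, against the 23.3% of all protein-coding genes. IGF2BP2 peaks lay in 9 (12.5% of all genes), YTHDF2 peaks in 7 (7.03%) and YTHDC1 peaks in 12 (19.3%). Their position, region and purine content were not measured. Snrnp200, the U5 helicase of the spliceosome, had an IGF2BP2 peak of fold 30.6 in its coding sequence, with YTHDF2 at 12.4 and YTHDC1 at 7.52. Znfx1 had a YTHDC1 peak of 22.3. Ddx3x, left out because it is on the X chromosome, had folds of up to 14.3, 8.38 and 19.8. As a check of the cell label, Myb, a transcription factor gene of blood progenitors, had 10, 6 and 4 peaks and Kit had 1 YTHDC1 peak, while Cd34 and Flt3 had none. Of 4 lymphoid and 4 erythroid marker genes none had a peak, and of 4 myeloid genes Prtn3 and Csf1r did. A peak list gives no expression level, and with a peak in 23.3% of all protein-coding genes, counts of 0 in 4 genes are barely a check of the label.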

How the data were processed

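Reads passed through bcl2fastq 2.17, Trim Galore and HISAT2 and were placed on build GRCm38, per the submitters' processing notes. The peak caller is not given in the sources used here. Each list rests on 1 immunoprecipitate, per the labels. The input track was not analysed here. The deposited lists give the authors' fold (a ratio of pileup to local background), the −log10 of p and of q, and a whole-number score that is 10 times the latter. The pileup signal at the summit is named per the file headers, and whether it was scaled is not given in the sources used here. Library totals are not in the files used, so depth is unknown.

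Summits were assigned with GENCODE M21 (exons before introns, then protein-coding genes first, then the lowest gene ID), which left 6 helicase summits under more than 1 gene and no ties. Regions were taken over all transcripts, in the order 3′ UTR, 5′ UTR, coding sequence, other exon, intron. Coding positions, box codons, GGAC and purines were read in the longest complete coding transcript, in windows of 50 nt on either side of a summit. A window count can exceed the CDS count, because a base can be UTR in another transcript. The assignment code was run on simulated summits placed in exons of protein-coding genes. The rule puts such exons first, so recovering the gene there was no test of the choice between genes. Intronic and intergenic summits were not tried. The analysis used Python 3.11.15, pandas 2.3.3 and scipy 1.17.1.

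The helicase genes and role lists were chosen with earlier results of these data known. The rule for named genes took, per reader, the 10 genes with the highest fold, the 3 with most peaks and the 3 strongest bound by that reader alone. It added the 10 genes in all 3 lists with the highest lowest fold, the genes without a peak, and other RNA helicases with a fold of at least 20. Ddx1, Ddx27, Dhx29 and Dhx8 entered on ties. Ddx10, Ddx18, Ddx3x, Ddx41, Ddx42, Ddx47, Ddx50, Ddx55, Dhx37, Dhx40 and Dhx9 fall outside it and were named after their values were seen, to account for each gene with a peak.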

Additional observations from a re-analysis of the deposited data

How the results depend on the processing

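No paired analysis was possible because each reader has 1 library, so there is also no replicate to leave out. Of 110 values under other settings, 94 stayed within a set range of the reported value and 16 did not. The range was 1.5 times a reported count, the interval of a reported share, or the quartiles of a reported median position. The quartiles are a loose range, for IGF2BP2 from 11.7 to 50.1% of the coding sequence. With the 2834 peaks of highest −log10 q kept in each list, 17 helicase genes had an IGF2BP2 peak and 16 a YTHDC1 peak, with 38 and 21 peaks in them. Their exonic shares were then 89.5% and 90.5%, while 39.5% of the IGF2BP2 and 62.1% of the YTHDF2 peaks overlapped another list. With a fold of at least 5, and likewise with a pileup of at least 5, YTHDF2 kept 16 peaks in 10 helicase genes, and 100% of them overlapped another list. When an overlap had to cover at least 50% of both peaks, it was found for 39.0% of IGF2BP2 and 33.9% of YTHDC1 peaks. The cause was not tested, other than that the first 3 settings keep fewer peaks and the last is a stricter overlap. A −log10 q of at least 5, peak midpoints, summits under 1 gene, all chromosomes, main-transcript exons and summits within 100 bp moved no value that far. The next settings were chosen after seeing the data. Leaving out summits whose 51-nt window occurs in another gene left 26, 18 and 24 helicase genes with a peak; only the 128 of 173 summits in exons of the main transcript were read, and the others were kept unread. Leaving out the gene with most coding summits gave median positions of 20.2% and 13.8% for IGF2BP2 and YTHDF2, and for YTHDC1, where Ddx54 and Dhx16 tied, of 18.4% and 19.1%. Depth, expression and the input track are unknown here, so a gene without a peak is not shown to be unbound, and peaks with a pileup of 3 or less are the least certain.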
